A study of Homo sapiens with 24 samples.

Results

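The stress granule core proteins are 10 human genes chosen by symbol: G3BP1, G3BP2, CAPRIN1, USP10, TIA1, TIAL1, PABPC1, ATXN2, FMR1 and DDX3X. Each gene was represented by the probe set with the highest mean, and 9 of the 10 had a value among 22395 genes measured. USP10 had no probe set named for it in the array annotation used here, so no value is given for it. Each of the other 9 had 1 probe set, lay at or above the median of all values (2.42 on the log2 scale) on 24 of 24 arrays, and passed the filter on low values. The transcripts were measured with an Affymetrix array in HAP1, a near-haploid human line derived from the leukaemia line KBM-7, in 6 lines and 3 arms. PAR is the parental line, S51A is named for the change that takes from eIF2-alpha the serine its kinases phosphorylate, and HRI, GCN2, PKR and PERK are marked in the labels as lacking the eIF2-alpha kinase of that name. The arms are no drug (9 arrays), lomustine at 200 µM for 2 h (9 arrays) and the treatment titled SA100 for 2 h (6 arrays). SA100 arrays carry lomustine in the agent field, but the treatment text has NaAsO2 (sodium arsenite, 100 µM) as the only other drug, and the title was followed. PAR, S51A and HRI had 2 arrays, lettered A and B, without drug and with lomustine, and the other 12 of the 18 groups had 1. The labels do not say whether lettered arrays are separate cultures or whether a line is 1 clone, so p-values measure only the spread between these arrays.

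Stress granules are assemblies of untranslated mRNA and protein that form in the cytoplasm when translation initiation stalls, most often after an eIF2-alpha kinase phosphorylates eIF2-alpha. G3BP1 and its paralog G3BP2 are RNA-binding scaffolds that drive assembly. CAPRIN1 binds them and favours assembly, and USP10 binds the same site and opposes it. TIA1 and TIAL1 are RNA-binding proteins with prion-like domains, PABPC1 binds poly(A) tails, ATXN2 binds PABPC1, FMR1 represses translation of its target mRNAs, and DDX3X is a DEAD-box RNA helicase of translation initiation. Arsenite is a classical inducer of stress granules through HRI, and lomustine is an alkylating nitrosourea. The study's title concerns the holding of EGR1 mRNA in stress granules, and the arrays bear on how much mRNA of the granule proteins the cells held, not on protein or on granules.

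Promoters are shown for DDX3X, which passed the test with lomustine, and for G3BP1, the main scaffold. They are the 250 bases before the most upstream start of each gene in RefSeq (GRCh38.p14), both on the plus strand, at chrX:41333058-41333307 for DDX3X and chr5:151771704-151771953 for G3BP1. Capitals mark matches on either strand to GCGNGGGCG, an EGR1 site, in DDX3X and to CCAAT in G3BP1.
DDX3X: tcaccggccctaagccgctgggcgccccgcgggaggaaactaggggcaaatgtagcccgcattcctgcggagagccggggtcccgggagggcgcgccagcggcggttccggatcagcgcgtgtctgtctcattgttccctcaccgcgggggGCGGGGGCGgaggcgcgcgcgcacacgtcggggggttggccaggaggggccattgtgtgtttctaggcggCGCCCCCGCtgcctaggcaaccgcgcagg
G3BP1: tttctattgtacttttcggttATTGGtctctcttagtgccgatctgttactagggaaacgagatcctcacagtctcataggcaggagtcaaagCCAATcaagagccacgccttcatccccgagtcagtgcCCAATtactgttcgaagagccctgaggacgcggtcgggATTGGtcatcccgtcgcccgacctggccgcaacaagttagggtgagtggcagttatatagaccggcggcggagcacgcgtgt
The EGR1 site matched 2 times in the DDX3X promoter and in none of the other 7 promoters found (G3BP1, G3BP2, CAPRIN1, USP10, TIA1, TIAL1 and FMR1), against 8.23% of 27305 RefSeq promoters of that length. CCAAT matched 4 times in G3BP1 and in no other of the 8, against 33.0% of all. TATAAA matched once in TIA1 and in no other, against 11.2%. TGACGTCA, a cyclic AMP response element (1.75% of all), matched in none of the 8. No match of 1 motif overlapped a match of another. GC content was 72.8% in the DDX3X promoter and 54.0% in that of G3BP1, beside a median of 57.6% over all promoters. Promoters of PABPC1 and ATXN2 were not used here.

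Arrays differed in ways that touch these genes. On S51A lomustine B, 9.85% of all measured genes lay more than 1 log2 unit from their median over arrays, on PAR lomustine A 2.45%, and on the other 22 arrays 0.33% to 1.92%. S51A lomustine B was the lowest of the 24 arrays for 4 of the 9 granule genes, and PAR lomustine A was among the lowest 3 for 6 of them. EGR1, measured on the same arrays, rose by 3.57 log2 units with lomustine and by 4.85 with SA100. The kinase transcripts were not lower in the line named for them than in all other arrays, except EIF2AK3 on 1 PERK array. By line mean, EIF2AK4 was lowest in GCN2 (5.83, next PAR at 6.1), and EIF2AK1, EIF2AK2 and EIF2AK3 were lowest in S51A. For EIF2AK3 the means of S51A and PERK were close (3.71 and 3.73). EIF2AK1 was at 6.92 on S51A lomustine B, against 7.61 to 7.76 on the other S51A arrays. EIF2AK2 was at 6.35 on that array, against 7.35 to 7.64 on the others. The position of the probes relative to the mutations is not known here, so these values check no label. Of the blood markers, GATA1 and HBE1 reached 2.42 on 24 of 24 arrays, HBG1 on 20, SPI1 on 16, CD14 on 13, CD34 on 7, MPO on 3 and PTPRC on 0. Of the epithelial markers, EPCAM, KRT8 and KRT18 did so on 24, KRT19 on 23, KRT14 on 17 and CDH1 on 7. Of the fibroblast markers, COL1A1 did so on 24, COL1A2 on 10, TAGLN on 6, and DCN and LUM on 0. No blood, epithelial or fibroblast marker passed the test in a drug comparison.

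**Figure D1:**
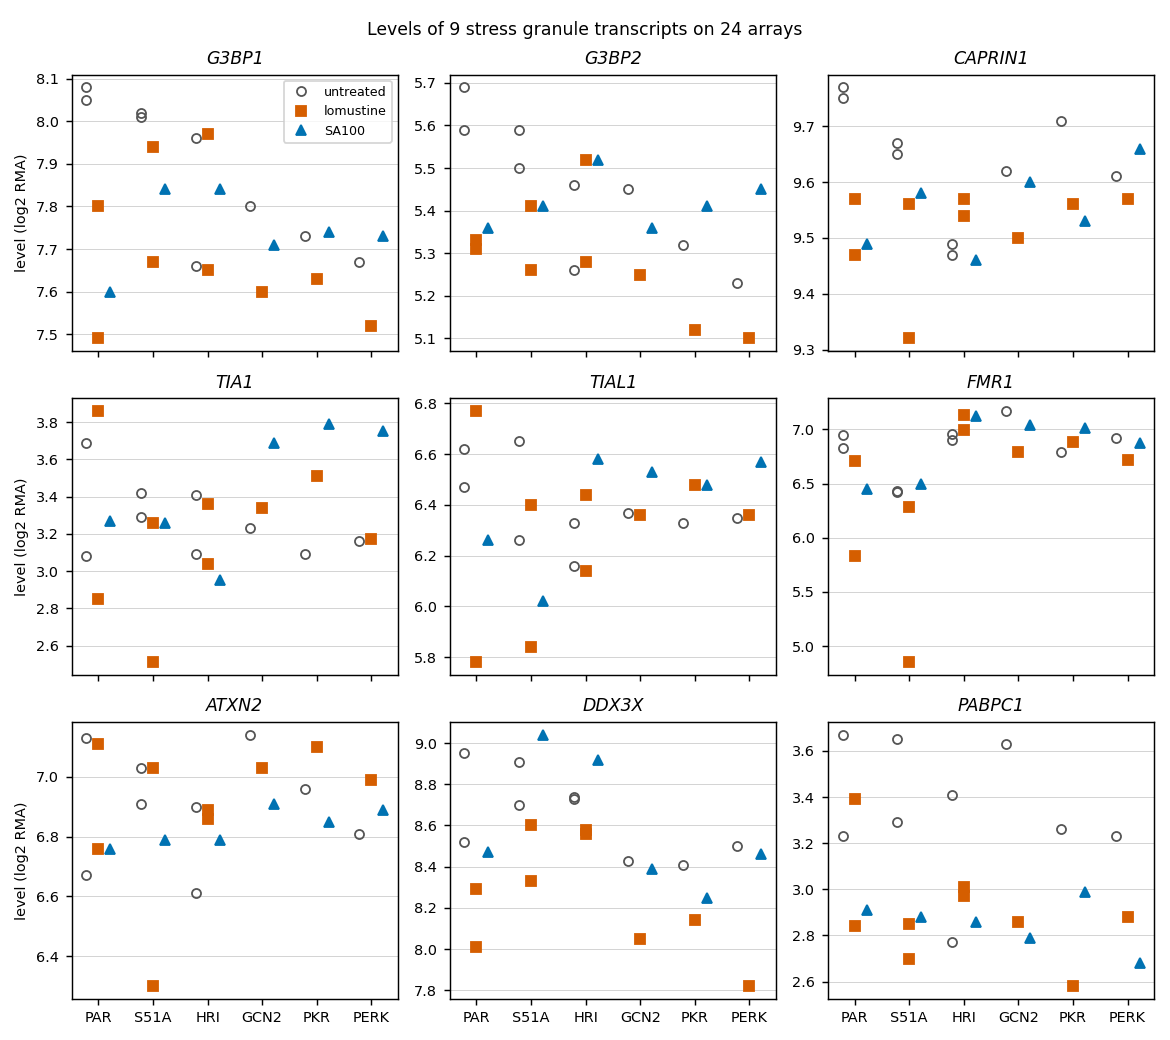
Level of each of the 9 measured genes (y axis, log2 RMA units, scale differs by panel) in the 6 lines (x axis). Each point is 1 array, with open circles for no drug, squares for lomustine and triangles for SA100. For each gene the arms overlap over lines, and in DDX3X the lomustine squares lie lowest in every line.

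Lomustine was compared with no drug over the 6 lines to ask which granule transcripts moved under it. DDX3X fell, and the other 8 genes did not pass the test, although all 9 estimates were below 0. DDX3X lay between 8.41 and 8.95 without drug (median 8.70, n = 9) and between 7.82 and 8.60 with lomustine (median 8.29, n = 9). The arms overlapped, but 6 of the 9 lomustine arrays were below every untreated array, and the mean was lower in 6 of 6 lines. The estimate was -0.39 on the log2 scale (SE 0.0867, 95% interval -0.57 to -0.21), a level 1.31-fold lower, with an adjusted p of 0.0295 in limma. In a culture, fewer cells holding a transcript and less of it per cell cannot be told apart. The call was lost without any 1 of 9 arrays: both untreated PAR arrays, untreated S51A A, the untreated GCN2, PKR and PERK arrays, PAR lomustine A, and the GCN2 and PERK lomustine arrays, with estimates from -0.40 to -0.34 and adjusted p from 0.0509 to 0.0866. It was also lost without any 1 of the 6 lines (-0.45 to -0.33). Quantile normalization also ended it (-0.28, adjusted p = 0.0922), as did a fit on only the arrays compared (adjusted p = 0.0819), a mean of line-wise contrasts (adjusted p = 0.517) and leaving out PAR lomustine A and S51A lomustine B together (-0.33, adjusted p = 0.0894). DDX3X was called under 20 of 40 alternatives (adjusted p 0.0134 to 0.517), and its direction held in all 40.

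PABPC1 was lower with lomustine in 6 of 6 lines without passing the test. Its level was 2.77 to 3.67 without drug (median 3.29, n = 9) and 2.58 to 3.39 with lomustine (median 2.86, n = 9), with the untreated HRI arrays at 2.77 and 3.41. These levels lie close to the 2.42 of the median probe set. The estimate was -0.45 (SE 0.113, interval -0.69 to -0.22, limma adjusted p = 0.0568), and without untreated HRI A it was -0.53, with an adjusted p of 0.0122. Without PAR lomustine B it was -0.51 (adjusted p = 0.0318), and after the table was quantile normalized again -0.46 (adjusted p = 0.0378). PABPC1 was called with lomustine under 4 of 40 alternatives and not under the other 36 (limma adjusted p 0.0122 to 0.543).

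The G3BP scaffolds and CAPRIN1 were lower with lomustine in 5 of 6 lines each, with no call. G3BP1 lay at 7.66 to 8.08 without drug (median 7.96) and 7.49 to 7.97 with lomustine (median 7.65), an estimate of -0.19 (SE 0.0814, limma adjusted p = 0.295). G3BP2 lay at 5.23 to 5.69 and 5.10 to 5.52, an estimate of -0.17 (SE 0.073, limma adjusted p = 0.301). HRI was the line without a lower mean for both genes, at 7.81 in both arms for G3BP1 and at 5.36 and 5.40 for G3BP2. CAPRIN1 varied least of the 9 genes (SD 0.102 over 24 arrays) and had an estimate of -0.12 (SE 0.0664, interval -0.26 to 0.02).

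FMR1 had the widest spread. It lay at 6.42 to 7.17 without drug (median 6.90) and 4.85 to 7.13 with lomustine (median 6.72), an estimate of -0.35 (SE 0.164, limma adjusted p = 0.334). The lowest value, 4.85, was S51A lomustine B, and its partner array was at 6.28. Without that array the FMR1 estimate was -0.20 (SE 0.111). TIAL1 (-0.11, SE 0.122), TIA1 (-0.06, SE 0.149) and ATXN2 (-0.01, SE 0.0988) were each lower in some lines and higher in others. With S51A lomustine B and PAR lomustine A left out, these 3 estimates were above 0, at 0.04, 0.10 and 0.10. After quantile normalization TIAL1 (0.07) and ATXN2 (0.16) were above 0.

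Over the 9 genes the median lomustine estimate was -0.168, beside -0.0433 over the 17526 genes tested. The 1 of 9 called stands beside 1.02% of all genes (0.77% called lower), and the 5 of 9 with an unadjusted p under 0.05 (DDX3X, PABPC1, G3BP1, G3BP2, FMR1) beside 14.1%. All 9 estimates were below 0, against 60.8% of all genes. Quantile normalization again left 7 of 9 below 0, with a median of -0.0693 beside 0.00193, and moved the calls over all genes from 43 higher and 135 lower to 103 and 107.

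SA100 was compared with no drug in the same way, and the comparison shares the 9 untreated arrays with that of lomustine. PABPC1 fell, and the other 8 genes did not pass the test. PABPC1 lay at 2.68 to 2.99 with SA100 (median 2.87, n = 6), against 2.77 to 3.67 without drug, again close to the 2.42 of the median probe set. The arms overlapped only through the untreated HRI A array at 2.77, since the next untreated array was at 3.23. The estimate was -0.48 (SE 0.128, interval -0.75 to -0.22), 1.40-fold lower, with a limma adjusted p of 0.0422 and a lower value in 6 of 6 lines. The call was lost without any 1 of 14 arrays, with estimates from -0.50 to -0.43 and adjusted p from 0.0518 to 0.12. These were untreated PAR A, S51A A, S51A B, HRI B, GCN2, PKR and PERK, lomustine GCN2 and PERK, and the SA100 arrays of PAR, S51A, HRI, GCN2 and PERK. Without line PAR, S51A, GCN2, PKR or PERK it was lost too. PABPC1 was called with SA100 under 18 of 39 alternatives, and no alternative turned its direction.

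DDX3X showed no difference that the SA100 arrays could resolve. It lay at 8.25 to 9.04 with SA100 (median 8.46), an estimate of -0.00 (SE 0.0979, interval -0.21 to 0.20), and its highest value, 9.04, was the S51A array. G3BP1 (-0.12, interval -0.31 to 0.07), G3BP2 (-0.01, interval -0.18 to 0.16) and CAPRIN1 (-0.09, interval -0.25 to 0.06) had narrow intervals that held 0. ATXN2 (-0.10, interval -0.33 to 0.13), FMR1 (-0.04, interval -0.43 to 0.34) and TIAL1 (-0.00, interval -0.29 to 0.28) had wider ones. TIA1 was the only gene with an estimate above 0 (0.15, interval -0.20 to 0.50), and its lines went different ways. With SA100 it was at 3.69 in GCN2, 3.79 in PKR and 3.75 in PERK, against 3.23, 3.09 and 3.16 without drug. In PAR, S51A and HRI it was at 3.27, 3.26 and 2.95, below untreated means of 3.39, 3.36 and 3.25. With 1 SA100 array a line, this split was not tested. The median estimate of the 9 genes was -0.0422, beside 0.0444 over all genes. The 1 of 9 called stands beside 3.04% of all genes (0.953% called lower), and the 1 of 9 with an unadjusted p under 0.05 beside 16.5%. Quantile normalization again moved the calls over all genes from 366 higher and 167 lower to 484 and 497, and centring the arrays to 192 and 219.

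SA100 was also set against lomustine, which shares its arrays with both comparisons above. DDX3X was the 1 gene of the 9 that passed the test, and it was higher with SA100 in 6 of 6 lines. The estimate was 0.39 (SE 0.0979, interval 0.18 to 0.59), 1.31-fold, with a limma adjusted p of 0.0221. The arms overlapped, with 2 SA100 arrays (S51A at 9.04 and HRI at 8.92) above every lomustine array. The call was lost without the PERK lomustine array (0.35, adjusted p = 0.0608), or without the SA100 array of S51A (0.34, 0.0712), HRI (0.37, 0.061) or PERK (0.37, 0.072). Quantile normalization again (0.28, adjusted p = 0.0614) and centring the arrays (0.31, adjusted p = 0.098) ended it as well. G3BP2 (0.16, interval -0.02 to 0.33) and FMR1 (0.31, interval -0.07 to 0.69) were higher in 6 of 6 lines without a call, and under quantile normalization G3BP2 was at -0.03. PABPC1, low in both drug arms, had an estimate of -0.03 (interval -0.30 to 0.23). G3BP1, CAPRIN1, TIA1, TIAL1 and ATXN2 lay between -0.09 and 0.22. The median of the 9 was 0.104, beside 0.0829 over all genes. The 1 of 9 called stands beside 5.94% of all genes (5.46% called higher), and the 1 of 9 with an unadjusted p under 0.05 beside 21.1%. Over all genes, 957 were called higher and 84 lower, against 591 and 424 after quantile normalization and 299 and 94 after centring.

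**Figure D2:**
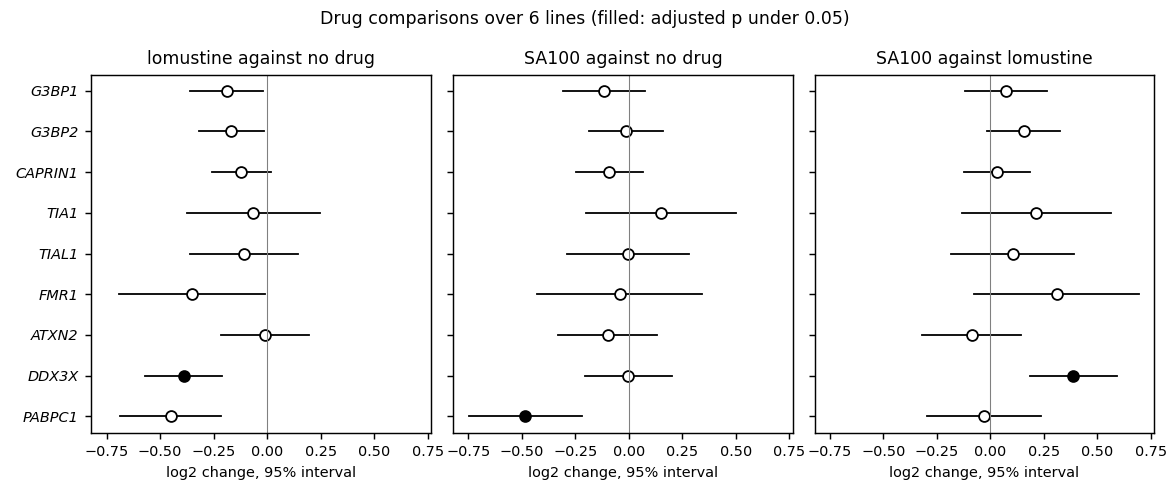
Estimated change of each gene in the 3 drug comparisons over 6 lines (x axis, log2 units), with 95% intervals from limma as bars. Filled points passed an adjusted p of 0.05: DDX3X with lomustine (-0.39), PABPC1 with SA100 (-0.48) and DDX3X for SA100 against lomustine (0.39).

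Within single lines, lomustine could be tested in PAR, S51A and HRI, which had 2 arrays in both arms. In PAR, 8 of the 9 genes were lower on average with lomustine (median -0.316, all genes -0.0922). DDX3X was at 8.95 and 8.52 without drug and at 8.01 and 8.29 with lomustine, so its arrays did not overlap (-0.58, SE 0.228, limma adjusted p = 1.00). FMR1 was at 6.83 and 6.95 against 5.83 and 6.71, and G3BP1 at 8.08 and 8.05 against 7.49 and 7.80. Those arrays did not overlap either, nor did those of G3BP2 (5.69 and 5.59 against 5.31 and 5.33) and CAPRIN1 (9.75 and 9.77 against 9.47 and 9.57). In each of these genes the lower of the lomustine values was array A. The share of all genes without overlap was not counted, so this only describes 2 arrays against 2. TIA1 (2.85 and 3.86) and TIAL1 (5.78 and 6.77) differed more between the lomustine arrays of PAR than between arms. In S51A, 9 of 9 genes were lower (median -0.333, all genes -0.101), led by FMR1 at 6.43 and 6.42 against 6.28 and 4.85 (-0.86, SE 0.41). PABPC1 in S51A was at 3.65 and 3.29 against 2.70 and 2.85 (-0.69, SE 0.292). In HRI, 3 of 9 were lower (median 0.04, all genes -0.017), and DDX3X, at 8.74 and 8.73 against 8.56 and 8.58, had the lowest of these estimates (-0.17, SE 0.228). After quantile normalization 5 of the 9 were below 0 in S51A and 8 in PAR.

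In limma, 0 of 9 genes were called with lomustine in PAR, in S51A and in HRI, beside 0.0%, 0.0114% and 0.0% of all genes. At an unadjusted p under 0.05 the counts were 1 (DDX3X) in PAR, 1 (PABPC1) in S51A and 0 in HRI, beside 2.88%, 4.06% and 1.48% of all genes, and with the trended robust prior 0 of 9 were called in each line. FMR1 in S51A was called (-1.57, limma adjusted p = 0.0272) only when array A of the lomustine pair was left out, which leaves S51A lomustine B alone and assumes that it varies like the other groups. HRI untreated A was most like HRI lomustine B (r = 0.984 over genes) and untreated B like lomustine A (r = 0.987), against 0.973 between the untreated arrays, and the part of this in the HRI values was not tested.

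The difference between lines in their response was tested itself. The lomustine response of HRI was above that of PAR for 8 of 9 genes (median 0.317, all genes 0.0943), from 0.75 in FMR1 (interval -0.54 to 2.03) and 0.42 in both G3BP1 and DDX3X to -0.02 in TIA1. The PAR side of this includes PAR lomustine A, which was among the lowest 3 arrays for 6 of the 9 genes. Without that array the TIAL1 difference changed sign, to -0.18, so the count of 8 leans on it. The lomustine response of S51A minus that of PAR had a median of -0.0605, with 5 of 9 below 0. With SA100, PAR was below its own untreated mean for 9 of 9 genes (-0.54 to -0.11), while HRI was above its own for 6. The SA100 response of HRI minus that of PAR was above 0 for 8 of 9 (median 0.441, all genes 0.0713), at most 0.62 in TIAL1 and FMR1, and that of S51A minus PAR for 6 of 9 (median 0.15). Each of these SA100 responses rests on 1 SA100 array a line, and both use the same PAR arrays. Limma called 0 of 9 genes in each of the 4 tests, beside 0.0% of all genes in each, and 0 of 9 had an unadjusted p under 0.05. That share was 0.628% of all genes for S51A with lomustine, 0.873% for HRI with lomustine, 0.679% for S51A with SA100 and 2.54% for HRI with SA100, and the trended robust prior also called 0 of 9. The intervals are wide, so a p above the threshold does not show equal responses.

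**Figure D3:**
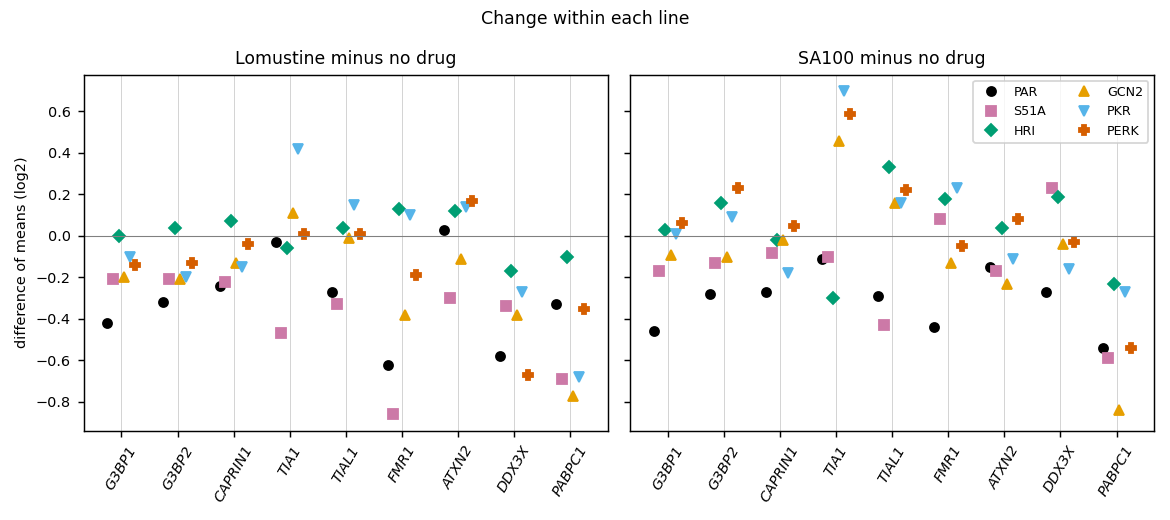
Change of each gene within each line (y axis, log2 difference of group means) with lomustine (left) and SA100 (right). Each marker is 1 line. DDX3X and PABPC1 lie below 0 in 6 of 6 lines with lomustine and PABPC1 does so with SA100, while TIA1 spans -0.30 to 0.70 with SA100.

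Lines were then compared with PAR over the 3 arms. No granule gene passed the test in any line, and DDX3X and FMR1 varied most between them. For DDX3X the order of mean levels was PERK (8.26), PKR (8.27), GCN2 (8.29), PAR (8.45), HRI (8.71) and S51A (8.72), and the arrays of each neighbouring pair overlapped. DDX3X was 0.27 above PAR in S51A (SE 0.116, limma adjusted p = 0.413) and 0.26 above it in HRI (SE 0.116, limma adjusted p = 0.603). For FMR1 the order was S51A (6.10), PAR (6.55), PERK (6.84), PKR (6.89), GCN2 (7.0) and HRI (7.02), again with overlap between neighbours. FMR1 was -0.46 from PAR in S51A (SE 0.22) and 0.47 in HRI (SE 0.22), with limma adjusted p of 0.515 and 0.644. Without the low array S51A lomustine B the difference of S51A from PAR was -0.18 (SE 0.153, limma adjusted p = 0.838). The highest FMR1 value in S51A, 6.50, lay below the lowest in HRI (6.90), GCN2 (6.79), PKR (6.79) and PERK (6.72). This difference between those lines was not tested, and such gaps were not counted over all genes.

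The scaffolds and the other RNA-binding proteins differed little between lines. G3BP1 ranged from 7.64 in PERK to 7.90 in S51A, G3BP2 from 5.26 in PERK to 5.46 in PAR, and CAPRIN1 from 9.51 in HRI to 9.61 in PAR and PERK. TIA1 ranged from 3.15 in S51A to 3.46 in PKR, TIAL1 from 6.23 in S51A to 6.43 in PKR and PERK, PABPC1 from 2.93 in PERK to 3.21 in PAR, and ATXN2 from 6.81 in S51A and HRI to 7.03 in GCN2. Without S51A lomustine B the ATXN2 difference of S51A from PAR went from -0.07 to 0.07.

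Limma called 0 of 9 genes against PAR in each line, beside 2.17% of all genes for S51A, 0.143% for HRI, 0.0685% for GCN2, 0.0% for PKR and 0.171% for PERK. At an unadjusted p under 0.05 the counts were 2 in S51A (9.7% of all genes), 2 in HRI (7.62%), 0 in GCN2 (4.07%), 0 in PKR (3.04%) and 0 in PERK (5.62%), and DDX3X and FMR1 made up both pairs. The trended robust prior called 0 of 9 in each. The epithelial marker EPCAM, at 2.57 to 6.66 over the arrays, was 2.15 higher in S51A than in PAR (SE 0.382, limma adjusted p = 0.00172), and 0 of the other 5 epithelial markers were called there. Its part in the S51A values was not tested.

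**Figure D4:**
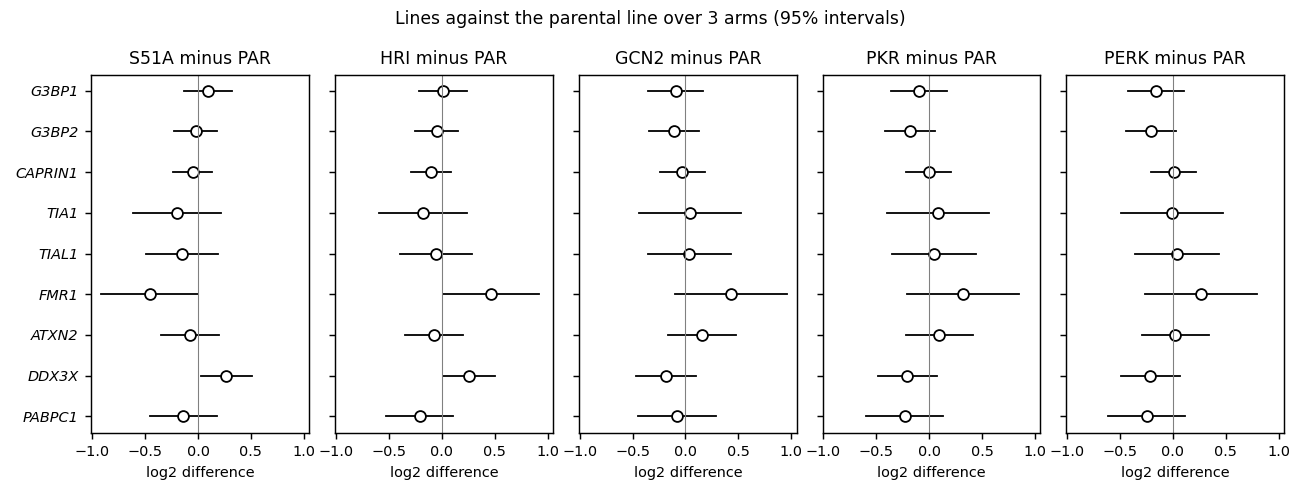
Difference of each line from PAR over the 3 arms (x axis, log2 units) with 95% intervals from limma. Open points did not pass an adjusted p of 0.05, which holds for all 45 differences. DDX3X lies above PAR in S51A and HRI and below it in GCN2, PKR and PERK, and FMR1 lies below PAR in S51A alone.

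Paralogs of the core proteins did not pass the test in any drug comparison (0 of 6 in limma). The smallest p-values with lomustine were those of PABPC4 (-0.25, SE 0.0942) and FXR2 (-0.22, SE 0.149), and with SA100 those of PABPC4 (-0.29, SE 0.106) and ATXN2L (-0.29, SE 0.15). At an unadjusted p under 0.05 the counts of paralogs were 1 with lomustine, 1 with SA100 and 2 between the drugs (FXR2 at 0.40 and ATXN2L at -0.32), beside 14.1%, 16.5% and 21.1% of all genes. PABPC3 did not pass the filter on low values.

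Of 26 other granule proteins tested, 1 fell with lomustine and 2 fell with SA100, and between the drugs 2 differed. Over all genes the called shares were 1.02%, 3.04% and 5.94%. HNRNPA1, a shuttling RNA-binding protein of splicing, lay at 3.53 to 5.22 without drug (median 4.72) and 3.10 to 3.96 with lomustine (median 3.49). Its estimate was -1.13 (SE 0.184, limma adjusted p = 0.00236), and it was higher with lomustine in 1 of 6 lines, PKR, by 0.05. PRRC2C (-0.39, SE 0.0792, limma adjusted p = 0.00838) and LARP1, which binds mRNAs with a terminal oligopyrimidine tract (-0.39, SE 0.0916, limma adjusted p = 0.0205), were lower with SA100 in 6 of 6 lines. The LARP1 call was lost without the untreated GCN2 or PKR array or the SA100 array of PKR or PERK (adjusted p 0.0507 to 0.081). With SA100, LARP1 was called under 29 of 39 alternatives and PRRC2C under 36. EWSR1 was higher with SA100 than with lomustine (0.44, SE 0.108, limma adjusted p = 0.0187), and PRRC2C was lower (-0.28, SE 0.0792, limma adjusted p = 0.0424). Between the drugs EWSR1 was called under 28 of 39 alternatives and PRRC2C under 14. The EWSR1 call was lost without the SA100 array of S51A, HRI, PKR or PERK (adjusted p 0.0502 to 0.0599), and that of PRRC2C without any 1 of 18 of the 24 arrays (adjusted p 0.051 to 0.134), the exceptions being PAR lomustine B, S51A lomustine B, S51A SA100, untreated PAR B and both untreated HRI arrays.

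Among 16 genes of processing bodies, cytoplasmic sites of mRNA decay and storage, 0 passed the test with lomustine in limma, although 16 of 16 estimates were below 0 (median -0.195) and 6 had an unadjusted p under 0.05. Over all genes 60.8% of lomustine estimates were below 0 (median -0.0433), 14.1% had such a p and 1.02% were called. The smallest p-values were those of AGO2 (-0.42, SE 0.108) and the decapping enzyme DCP2 (-0.53, SE 0.139). Of the 26 other granule proteins, 25 had lomustine estimates below 0 as well (median -0.148). The signs of the wider lists were not counted after quantile normalization, which moved the lomustine calls over all genes from 43 higher and 135 lower to 103 and 107. With SA100, DCP2 (-0.65, SE 0.157, limma adjusted p = 0.027) and the deadenylase scaffold CNOT1 (-0.32, SE 0.0875, limma adjusted p = 0.0462) fell, 2 of 16 beside 3.04% of all genes. Of 39 alternatives, 25 called DCP2 and 14 called CNOT1. DCP2 was lower in 4 of 6 lines: it was at 6.73 in S51A in both arms and at 7.05 and 7.08 in HRI. The DCP2 call was lost without any 1 of 8 arrays (untreated PAR B, GCN2, PKR and PERK, and SA100 of PAR, GCN2, PKR and PERK, adjusted p 0.0533 to 0.097). The CNOT1 call held without HRI lomustine A or B, S51A lomustine A or B, the S51A SA100 array or untreated S51A A, and was lost without any 1 of the other 18 arrays (adjusted p 0.0517 to 0.138). Between the drugs, EDC3 (0.61), LSM1 (0.62) and the helicase DDX6 (0.41) were higher with SA100 (limma adjusted p 0.00651, 0.0077 and 0.0181), the DDX6 call being lost without the SA100 array of PKR or PERK (0.0624 and 0.0683). These were 3 of 16 genes, beside 5.94% of all genes. EDC3 was called under 37 of 39 alternatives, LSM1 under 36 and DDX6 under 31.

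Of 10 initiation factors held in stress granules, 0 passed the test in any drug comparison in limma. With lomustine 10 of 10 estimates were below 0 (median -0.114), beside 60.8% over all genes (median -0.0433), EIF3A (-0.27, SE 0.0762) and the cap-binding EIF4E (-0.23, SE 0.084) having the smallest p-values. With SA100 these were EIF3A (-0.29, SE 0.086) and EIF4G1 (-0.19, SE 0.0883), and between the drugs EIF3G (0.23, SE 0.081) and EIF3D (0.21, SE 0.0853). An unadjusted p under 0.05 was reached by 3 of 10 in each of the 3 comparisons, beside 14.1%, 16.5% and 21.1% of all genes. Of 9 tested genes of granule control and clearance, BAG3, a co-chaperone of granule quality control, was the 1 called in each drug comparison, beside 1.02%, 3.04% and 5.94% of all genes. BAG3 lay at 5.07 to 5.51 without drug, 5.43 to 6.71 with lomustine and 7.43 to 7.89 with SA100. It rose by 1.11 with lomustine (SE 0.136, limma adjusted p = 6.78e-05) and by 2.35 with SA100 (SE 0.153, limma adjusted p = 1.49e-09), by line means in 6 of 6 lines each. S51A lomustine B, at 5.43, lay below both untreated S51A arrays (5.51 and 5.46), while S51A lomustine A was at 6.71. BAG3 was 1.24 higher with SA100 than with lomustine (SE 0.153, limma adjusted p = 4.18e-05).

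Duplicate arrays bound what could be resolved. The largest difference between the arrays of a duplicated group was 1.42 for FMR1 (S51A lomustine), 1.01 for TIA1 and 0.99 for TIAL1 (both PAR lomustine), and 0.72 for ATXN2 (S51A lomustine). It was 0.65 for PABPC1 and 0.42 for DDX3X, both among untreated arrays, and 0.32, 0.24 and 0.23 for G3BP1, CAPRIN1 and G3BP2. The median duplicate difference was 0.24 for DDX3X and 0.40 for PABPC1, beside lomustine estimates of -0.39 and -0.45. Over the 36 pairs of granule genes, Pearson's r across 24 arrays was -0.224 to 0.86 (median 0.416, 12 pairs above 0.5). Over the 22 arrays other than S51A lomustine B and PAR lomustine A, the median was 0.132, with 5 pairs above 0.5. These arrays share lines and arms, so the r are descriptions.

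The genes most like each granule gene over the 24 arrays were named by Pearson's r of levels. DDX3X was most like UBE2K (r = 0.89) and FAM98A (0.879), with 0.878 and 0.869 on the 22 arrays. PABPC1 was most like SNORD75 (0.78) and RPL14 (0.742), the weakest likeness among the 9. G3BP1 was most like UTP20 (0.893) and SLC7A2 (0.891), G3BP2 like TMEM41B (0.879) and TAF13 (0.875), and CAPRIN1 like NFATC3 (0.849) and KLHL9 (0.826). FMR1 was most like ALG13 and OCRL (both 0.943), with 0.808 and 0.827 on the 22 arrays. TIA1 was most like POT1 (0.905) and CEP295 (0.895), TIAL1 like AFG1L (0.895) and DUSP11 (0.873), and ATXN2 like LINC00265 (0.92) and OSBPL1A (0.908).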

How the data were processed

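Total RNA of HAP1 lines was hybridized to an Affymetrix array. The table deposited by the authors holds log2 values of 53617 probe sets on 24 arrays, made with RMA and the R package affy per the submitters' processing notes; versions and genome build are not given in the sources used here. RMA equalizes the arrays before summary, so a change shared by most transcripts can be removed in part or in full. The deposited values still lean 1 way in some comparisons, as for SA100 against lomustine, with 957 genes called higher and 84 lower. Whether such a lean comes from the cells or from the arrays was not tested. Values ran from 0.71 to 12.47 and array medians from 2.34 to 2.58. The number of arrays limits the precision.

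Of 25713 annotated probe sets, 23871 with exactly 1 gene symbol were kept and 1842 with several were dropped, and 27904 further probe sets without annotation were not used; 90 symbols were updated through Entrez IDs. The probe set with the highest mean stood for each of 632 genes with more than 1. Genes at or above 2.42 (the median over the whole table) on 2 or more of the 24 arrays were tested, 17526 of 22395.

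Tests were two-sided in limma 3.58.1 (R 4.3.3), adjusted over those genes by Benjamini-Hochberg and called at 0.05. A model of arm and line (16 residual degrees of freedom) gave the drug and line comparisons. A model with 1 mean per group (6 degrees of freedom) gave the tests within lines and of differences between responses, and assumes that single arrays vary like the duplicated ones. The code was tested on simulated data. Alternatives changed the filter, the probe set rule, the normalization, the variance prior, the model, and the arrays and lines in the fit, with a block for lettered repetitions. The 9 measured granule genes are given in each drug comparison; within lines and between responses some are named and the rest counted. Of each wider list the drug comparisons name up to 4 genes past the test with the smallest p, or the 2 with the smallest p if none passed. For each granule gene it also names the 2 most like it by Pearson's r. EGR1, the kinase genes and EPCAM were added for their bearing on the labels. The genes and lists were chosen with earlier results of these data known.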

Additional observations from a re-analysis of the deposited data

Results flagged for a closer look

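In each arm, the highest and lowest array of each gene was set against the others by Dixon's test, in 27 groups of 6 or 9 arrays. Chance would mark about 1 in 20 groups if the arrays of an arm were independent values of 1 population. Each arm mixes 6 lines, and the groups share arrays, so this rate cannot be set against the count. Of the 27 groups, 3 had an array that stood apart. CAPRIN1 was at 9.32 on S51A lomustine B, 9.47 being the next lomustine value. ATXN2 was at 6.30 on the same array, 6.76 being the next. PABPC1 was at 2.77 on untreated HRI A, 3.23 being the next untreated value. Without this array PABPC1 was called lower with lomustine (-0.53, limma adjusted p = 0.0122), as it was without PAR lomustine B (-0.51, limma adjusted p = 0.0318).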

How the results depend on the processing

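With lomustine against no drug, 1 of the 9 genes was called. The count was 0 without S51A lomustine B and PAR lomustine A together (DDX3X -0.33, limma adjusted p = 0.0894), without line PAR, S51A, GCN2, PKR or PERK, with only the arrays compared, and with the mean of line-wise contrasts, and it ranged from 0 to 2 when 1 array was left out. Letters did not pair the arrays, since A minus B in the untreated and in the lomustine arm correlated over genes at 0.334 in PAR, -0.386 in S51A and -0.56 in HRI. With the replicate block, 0 of 9 genes were called with lomustine (DDX3X -0.39, adjusted p = 0.111; 87 genes over all, against 178), and no other call on these genes changed. Crossed pairing as a block, chosen after seeing the data, called 0 of 9 in S51A and in HRI (1 and 0 genes over all). With SA100 against no drug, 1 was called, and 0 without line PAR, S51A, GCN2, PKR or PERK, with only the arrays compared or with the mean of line-wise contrasts. It ranged from 0 to 1 when 1 array was left out, as did SA100 against lomustine and lomustine in S51A. With SA100 against lomustine, 1 was called, and 0 after quantile normalization, after centring, without line S51A, HRI, GCN2 or PERK, with only the arrays compared or with the mean of line-wise contrasts. The cause of these losses was not tested, beyond the fewer arrays in some fits. Over all genes, calls with lomustine ran from 22 (line-wise mean) to 310 and with SA100 from 137 to 981. Of 4509 values of single genes under an alternative, 53 lost a call, 5 gained one and 0 reversed a call. Another 24 changed sign without a call and moved by at least 1 SE of the main estimate. Smaller changes of sign without a call were not counted. The few arrays per group limit all of these results, and low signals limit PABPC1 and TIA1.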

Other observations

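Lines were also compared with PAR over the wider lists. AGO1, an Argonaute protein that binds small RNAs in processing bodies, was 0.68 higher in S51A than in PAR (SE 0.162, limma adjusted p = 0.0244), and was singled out after its value was seen. It was the 1 gene called among 16 of processing bodies. Limma called 0 of the 26 other granule proteins, 0 of the 10 initiation factors, 0 of the 6 paralogs and 0 of the 9 genes of granule control in S51A against PAR, where 1, 0, 0 and 1 of them had an unadjusted p under 0.05. Over all genes 2.17% were called in that comparison and 9.7% had an unadjusted p under 0.05.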
